A study of Rattus norvegicus with 172 samples.

Results

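Collagens, laminins and integrins were followed in dentate granule cells of rats with experimentally induced seizures. The genes were taken by symbol: every collagen alpha chain, every laminin alpha, beta or gamma chain, and every integrin alpha or beta subunit that had a probe set assigned to 1 gene. This gave 73 genes of the 14217 genes on the array, of which 41 were collagens, 10 laminins and 22 integrins. Each gene was read from 1 probe set, the brightest over all rats, and 47 of the 73 (27 collagens, 6 laminins and 14 integrins) were bright enough to test, meaning above the median signal of the array in at least 6 rats. The other 26 genes (14 collagens, 4 laminins and 8 integrins) were above the median in at most 5 rats, and no change is given for them.

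The study captured granule cells by laser from stained hippocampal sections of 164 male Sprague-Dawley rats and measured their RNA on 172 expression arrays, with 1 colour and 1 signal per probe set. Pilocarpine, an agonist of muscarinic acetylcholine receptors, was given at 300 to 350 mg/kg after methylscopolamine in 2 laboratories, where status epilepticus (continuous seizure activity) was stopped after 90 min. Kainate, an agonist of glutamate receptors, was given in repeated doses of 5 mg/kg in 2 laboratories. In laboratory A status epilepticus ended by itself after 6 to 8 h, while in laboratory B the first dose was 7.5 mg/kg and status epilepticus was stopped after 90 min. SSSE (self-sustaining status epilepticus) was studied in 1 laboratory. In these 3 models rats were taken at days 1, 3 and 10. Kindling, in which repeated brief stimulation comes to evoke stronger seizures, was studied in 2 laboratories at seizure stages 2, 4 and 5. Every group held 6 rats, except that SSSE had 6 rats at day 1, 5 at day 3, 4 at day 10 and 5 controls. All groups, controls included, were of the same strain and sex. Of the 164 rats, 5 correlated less with their own group than the rest (rat 4 of SSSE day 3, rat 5 of kainate day 10 in laboratory B, and at day 10 after pilocarpine rats 2 and 5 of laboratory A and rat 2 of laboratory B), and results that rest on them are also given without them. The controls of the pilocarpine model were injected with saline, and each treated group was compared only with the controls of its own laboratory. Signals are given as log2(signal + 16), so that a difference of 1 corresponds to a doubling of signal + 16, and a fold taken from it understates the change of a dim gene.

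Collagens are triple helices of 3 alpha chains, and laminins are trimers of 1 alpha, 1 beta and 1 gamma chain. Collagen IV and laminin build the basement membrane, which in the brain surrounds blood vessels and lines the surface under the meninges, and other collagens form fibrils or sit on their surface. Integrins are receptors of 1 alpha and 1 beta subunit that link this matrix, or ligands on other cells, to the cytoskeleton. Granule cells are the principal neurons of the dentate gyrus, and some collagens, such as the membrane-spanning Col25a1, are neuronal.

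The start sites of 4 of the collagens are shown, since Col6a3 had the largest rise at day 1, Col9a1 and Col19a1 are neighbours that changed in opposite directions, and Col11a1 differed between laboratories and models. Each stretch, from RefSeq on build GRCr8, runs 5′ to 3′ on the strand of the gene from 250 bases before the start of the gene to 50 bases within it, and capitals mark any of the motifs searched on both strands. Col6a3 lies at chr9:98886909-98887208 (minus strand), Col9a1 at chr9:34081114-34081413 (plus strand), Col19a1 at chr9:34518208-34518507 (minus strand) and Col11a1 at chr2:204508886-204509185 (plus strand).
Col6a3: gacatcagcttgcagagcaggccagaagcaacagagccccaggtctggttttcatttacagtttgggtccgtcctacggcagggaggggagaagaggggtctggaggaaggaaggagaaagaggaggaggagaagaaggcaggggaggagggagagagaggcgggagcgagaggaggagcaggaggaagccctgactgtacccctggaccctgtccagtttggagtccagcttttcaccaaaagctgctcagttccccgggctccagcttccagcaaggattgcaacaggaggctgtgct
Col9a1: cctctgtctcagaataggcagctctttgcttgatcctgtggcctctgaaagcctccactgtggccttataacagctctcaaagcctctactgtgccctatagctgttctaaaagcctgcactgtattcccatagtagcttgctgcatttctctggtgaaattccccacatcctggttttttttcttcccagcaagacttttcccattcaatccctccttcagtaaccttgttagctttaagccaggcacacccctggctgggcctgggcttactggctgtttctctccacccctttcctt
Col19a1: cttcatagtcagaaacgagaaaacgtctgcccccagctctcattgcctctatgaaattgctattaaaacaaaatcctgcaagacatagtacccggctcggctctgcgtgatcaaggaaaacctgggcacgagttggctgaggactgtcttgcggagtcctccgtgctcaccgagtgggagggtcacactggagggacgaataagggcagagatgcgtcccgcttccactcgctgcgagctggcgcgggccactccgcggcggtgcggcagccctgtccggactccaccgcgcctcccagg
Col11a1: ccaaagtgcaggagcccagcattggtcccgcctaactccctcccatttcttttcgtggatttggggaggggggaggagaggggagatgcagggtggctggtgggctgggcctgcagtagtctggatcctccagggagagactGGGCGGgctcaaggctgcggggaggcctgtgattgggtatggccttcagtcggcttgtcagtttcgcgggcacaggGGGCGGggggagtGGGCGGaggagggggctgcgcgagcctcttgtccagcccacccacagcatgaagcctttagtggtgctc

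Col9a1, which rose, and Col19a1, which fell, are neighbours on chromosome 9. They lie tail to tail on opposite strands, 5695 bases apart, with 0 other protein-coding genes between them. The motifs were the AP-1 site TGANTCA, the cAMP response element TGACGTCA and its core TGACG, the STAT site TTCNNNGAA, the GC box GGGCGG and the TATA box TATAAA. The core lies within the full cAMP response element, so a match to the element is also a match to the core. Of the 4 stretches only that of Col11a1 held a match, with 3 GC boxes. RefSeq stretches were at hand for 56 of the 73 genes. A GC box was found for 11 of 19 genes that rose in any comparison (57.9%), for 4 of 7 that fell (57.1%) and for 6 of 8 tested genes that did not change (75.0%), against 34.9% of all 27457 stretches. An AP-1 site was found for 2 of the 19 genes that rose (10.5%), Col6a1 and Lama3, for 0 of the 7 that fell, and for 7.33% of all stretches.

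At day 1 after status epilepticus, members rose and fell in all 3 models, and fewer had changed at later times. A gene was counted as changed at an adjusted p under 0.05 in limma's moderated test, with Benjamini-Hochberg adjustment over all 10745 genes tested. After pilocarpine, 19 of the 47 members had changed at day 1 (12 higher, 7 lower), which is 40.4%, against 32.1% of all genes. At day 3, 12 had changed (11 higher, 1 lower), 25.5% against 11.7% of all genes, and at day 10, 10 had changed (5 higher, 5 lower), 21.3% against 8.95%, or 6 without the 5 less correlated rats. The share of all genes without those rats is not given. The higher and lower shares of all genes after pilocarpine were 15.8% and 16.3% at day 1, 7.74% and 3.93% at day 3, and 3.83% and 5.13% at day 10. After kainate, 25 members had changed at day 1 (16 higher, 9 lower), 53.2% against 41.7% of all genes, 9 at day 3 (8 higher, 1 lower), 19.1% against 7.99%, and 5 at day 10 (3 higher, 2 lower), 10.6% against 6.29%. The higher and lower shares of all genes after kainate were 22.3% and 19.4% at day 1, 4.67% and 3.31% at day 3, and 2.58% and 3.71% at day 10.

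In the SSSE model 7 members had changed at day 1 (1 higher, 6 lower), 14.9% against 12.5% of all genes, and 4 at day 3 (3 higher, 1 lower), 8.51% against 3.15%. The higher and lower shares of all genes were 5.52% and 7.03% at day 1 and 1.67% and 1.48% at day 3. These counts rest on single rats: with 1 SSSE or control rat left out at a time they ran from 4 to 11 at day 1 and from 2 to 6 at day 3, and the 11 came without rat 4 of day 3. The shares of all genes in these fits are not given. With 1 rat left out, 46 of 220 values of members named in SSSE comparisons were no longer called, and 0 changed direction. At day 10, limma called 0 members changed, where 3 had an unadjusted p under 0.05 and 0.344% of all genes were called. In simulated data 18% of log2 changes of 0.5 were called at this time, so 0 calls do not show that members stayed level. In kindled rats limma called 0 members at stage 2 and 0 at stage 4, with 2 and 3 members at an unadjusted p under 0.05, and 0 of all genes were called at either stage. At stage 5, 6 members had changed (1 higher, 5 lower), 12.8% against 7.1% of all genes (3.23% higher and 3.87% lower). Over the members, the median change was 0.12 at day 1 after pilocarpine, where it was 0.00 over all genes, and 0.13 at day 1 after kainate, where it was 0.02 over all genes. With no filter on low values the members' medians were 0.04 after pilocarpine and 0.02 after kainate. A gene that is bright only in treated rats can enter the test because it is high there, so these shares describe the genes that could be tested and not all 73. Lama3 was above the array median in 6 rats, Col5a3 in 7, Itga1 in 13 and Col9a1 in 22.

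**Figure D1:**
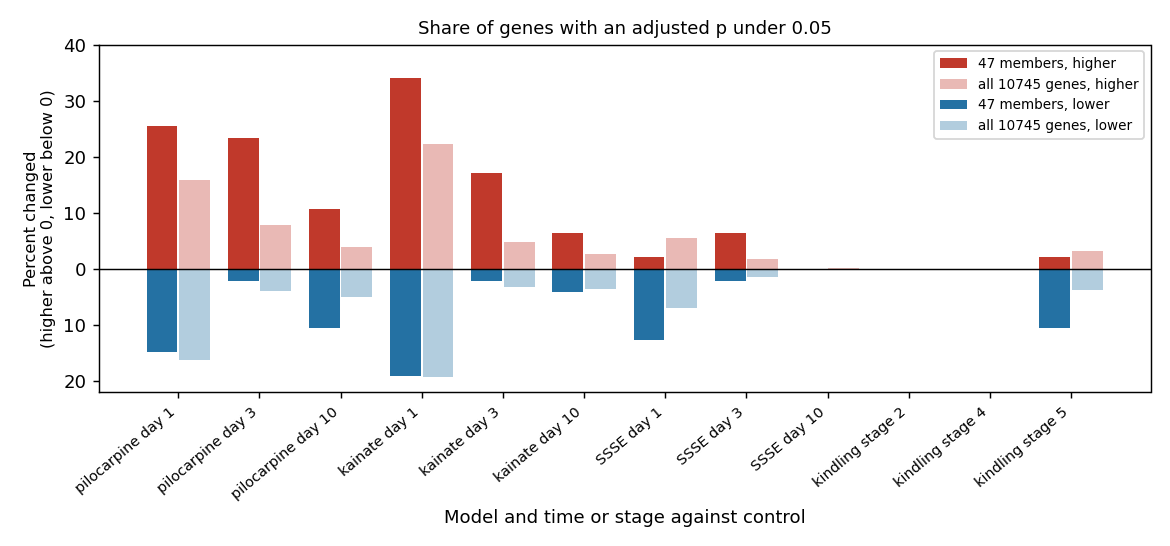
Percent of genes called higher (above 0) or lower (below 0) than control in each of the 12 comparisons, for the 47 tested collagen, laminin and integrin genes and for all 10745 tested genes. The members reach 53.2% changed in both directions together at day 1 after kainate and are at 0 at kindling stages 2 and 4.

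Over the 12 comparisons, 34 of the 47 members changed at least once. Of these 22 were only ever called higher, 12 only ever lower and 0 both. Of the collagens 17 of 27 changed (11 higher, 6 lower), of the laminins 4 of 6 (3 higher, 1 lower) and of the integrins 13 of 14 (8 higher, 5 lower). The share of all genes changed at least once was not computed, so these counts cannot be read as particular to the members. At day 1 after kainate alone, 41.7% of all genes were called. The 13 members with no call included the chains of the fibrillar collagens I and III (Col1a1, Col1a2 and Col3a1), which fibroblasts make in quantity, Col2a1, Col4a5, Col5a1, Col8a2, Col12a1, Col15a1, Col22a1, the laminin chains Lamb1 and Lamc3, and the integrin Itgb7. A missing call does not show that these genes stayed level: Col1a2 differed from control by 0.54 ± 0.26 (SE) at day 1 after pilocarpine and by -0.51 ± 0.33 at day 1 after kainate.

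**Figure D2:**
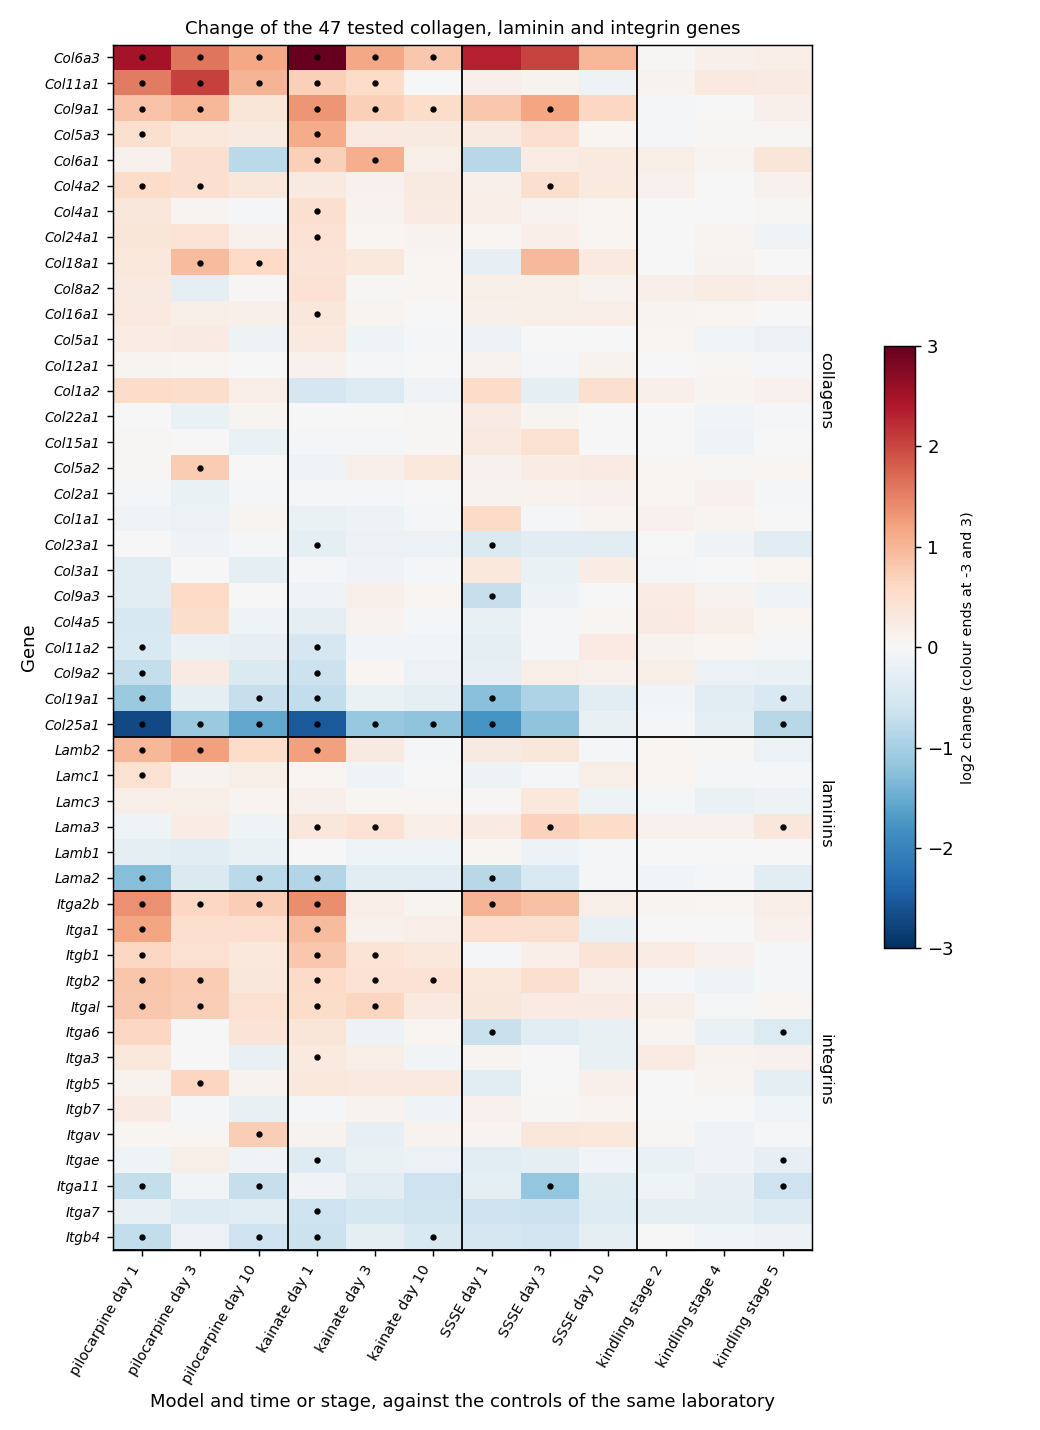
Change from same-laboratory controls, in log2(signal + 16), of the 47 tested genes (rows) in the 12 comparisons (columns); colours end at 3 in either direction and a black dot marks an adjusted p under 0.05. Col25a1 is lower in 8 comparisons and Col6a3 higher in 6.

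Col6a3, the alpha 3 chain of collagen VI, a microfibril-forming collagen, had the largest rise of any member at day 1 after both drugs. In laboratory A its level one day after kainate was 8.67 in the lowest rat, 9.21 at the median and 10.21 in the highest, against 4.76, 5.01 and 6.26 in control rats. In laboratory B it was 8.18, 9.47 and 10.36 after kainate, against 4.40, 5.14 and 5.55 in control rats. All 12 treated rats lay above every control of their laboratory. The difference was 4.27 ± 0.25 (SE, n = 12 kainate rats; adjusted p = 6.7e-18), a 19.3-fold change of signal + 16. After pilocarpine the level at day 1 was 7.16, 7.46 and 7.91 (lowest, median and highest rat) in laboratory A, against 5.08, 5.37 and 5.78 in control rats, and 6.24, 7.92 and 9.25 in laboratory B, against 4.59, 4.94 and 5.28 in control rats. The rise was 2.50 ± 0.29 (adjusted p = 9.68e-09), with 12 of 12 rats above their controls.

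In SSSE rats Col6a3 at day 1 was 10.38, 7.53, 7.60, 5.27, 7.33 and 5.66, against 5.13, 4.93, 4.76, 4.98 and 4.96 in the 5 controls. All 6 SSSE rats lay above the controls, but they ran from 5.27 to 10.38, and the difference of 2.34 ± 0.78 did not pass (adjusted p = 0.0546). At day 3 the SSSE rats had 5.33, 7.09, 10.28, 5.93 and 6.23, again all above the controls, the highest being the less correlated rat, and the difference of 2.02 ± 0.82 had an adjusted p of 0.18. Col6a3 was still higher 3 days after pilocarpine (1.61 ± 0.29) and after kainate (1.15 ± 0.25), and at day 10 after kainate (0.81 ± 0.25; adjusted p = 0.0461), a value that was 0.78 and not called without the less correlated rats. At day 10 after pilocarpine the mean rise of 1.17 ± 0.29 was 0.28 in laboratory A and 2.06 in laboratory B. A second Col6a3 probe set, too dim to pass the filter, differed from control by 0.05, 0.12 and 0.03 at day 1 after pilocarpine, kainate and SSSE, so the large rise was read by 1 of the 2 probe sets of the gene.

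Collagen VI needs its alpha 1 and alpha 2 chains as well. Col6a1, the alpha 1 chain, rose by 0.71 ± 0.29 at day 1 after kainate and by 1.09 ± 0.29 at day 3, and the day 1 value was 1.52 in laboratory A and -0.10 in laboratory B. Col6a2, the alpha 2 chain, was above the array median in 1 rat and was not tested. Its mean level was 4.39 at day 1 after pilocarpine, against 4.61 in control rats, and 4.40 at day 1 after kainate, against 4.47 in control rats.

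Col25a1, the membrane-spanning collagen of neurons, was lower than control in 8 of the 12 comparisons, more than any other member. At day 1 after pilocarpine its level was 6.57, 7.32 and 8.68 in laboratory A (lowest, median and highest rat), against 9.56, 9.96 and 10.48 in control rats, and 5.67, 6.35 and 8.58 in laboratory B, against 9.19, 9.62 and 10.17 in control rats. The treated and control groups did not overlap in either laboratory, and the gene fell by 2.71 on the log2 scale (SE 0.27; adjusted p = 2.78e-10). Kainate rats at day 1 had 6.96, 7.49 and 8.10 in laboratory A, against 9.47, 9.92 and 10.29 in control rats, and 6.99, 7.87 and 8.01 in laboratory B, against 10.07, 10.32 and 10.72 in control rats. This was a change of -2.51 ± 0.18 (adjusted p = 2.32e-15), again with no overlap. The SSSE rats at day 1 had 7.69, 7.79, 7.96, 8.77, 7.41 and 9.80, against 10.12, 10.09, 10.02, 10.18 and 9.62 in control rats. Of these 6 rats 5 lay below every control, and the change was -1.77 ± 0.36 (adjusted p = 0.00533).

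Col25a1 was still lower than control 10 days after pilocarpine (-1.56 ± 0.27; adjusted p = 0.000162) and after kainate (-1.20 ± 0.18; adjusted p = 1.48e-05). It was also lower in fully kindled rats. At stage 5 it was 8.31, 8.54 and 9.51 in laboratory A, against 9.67, 9.70 and 10.04 in control rats, and 7.91, 8.68 and 9.92 in laboratory B, against 9.07, 9.33 and 9.71 in control rats. Of the 12 kindled rats 10 lay below all controls of their laboratory, and the change was -0.84 ± 0.16 (adjusted p = 0.00115).

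**Figure D3:**
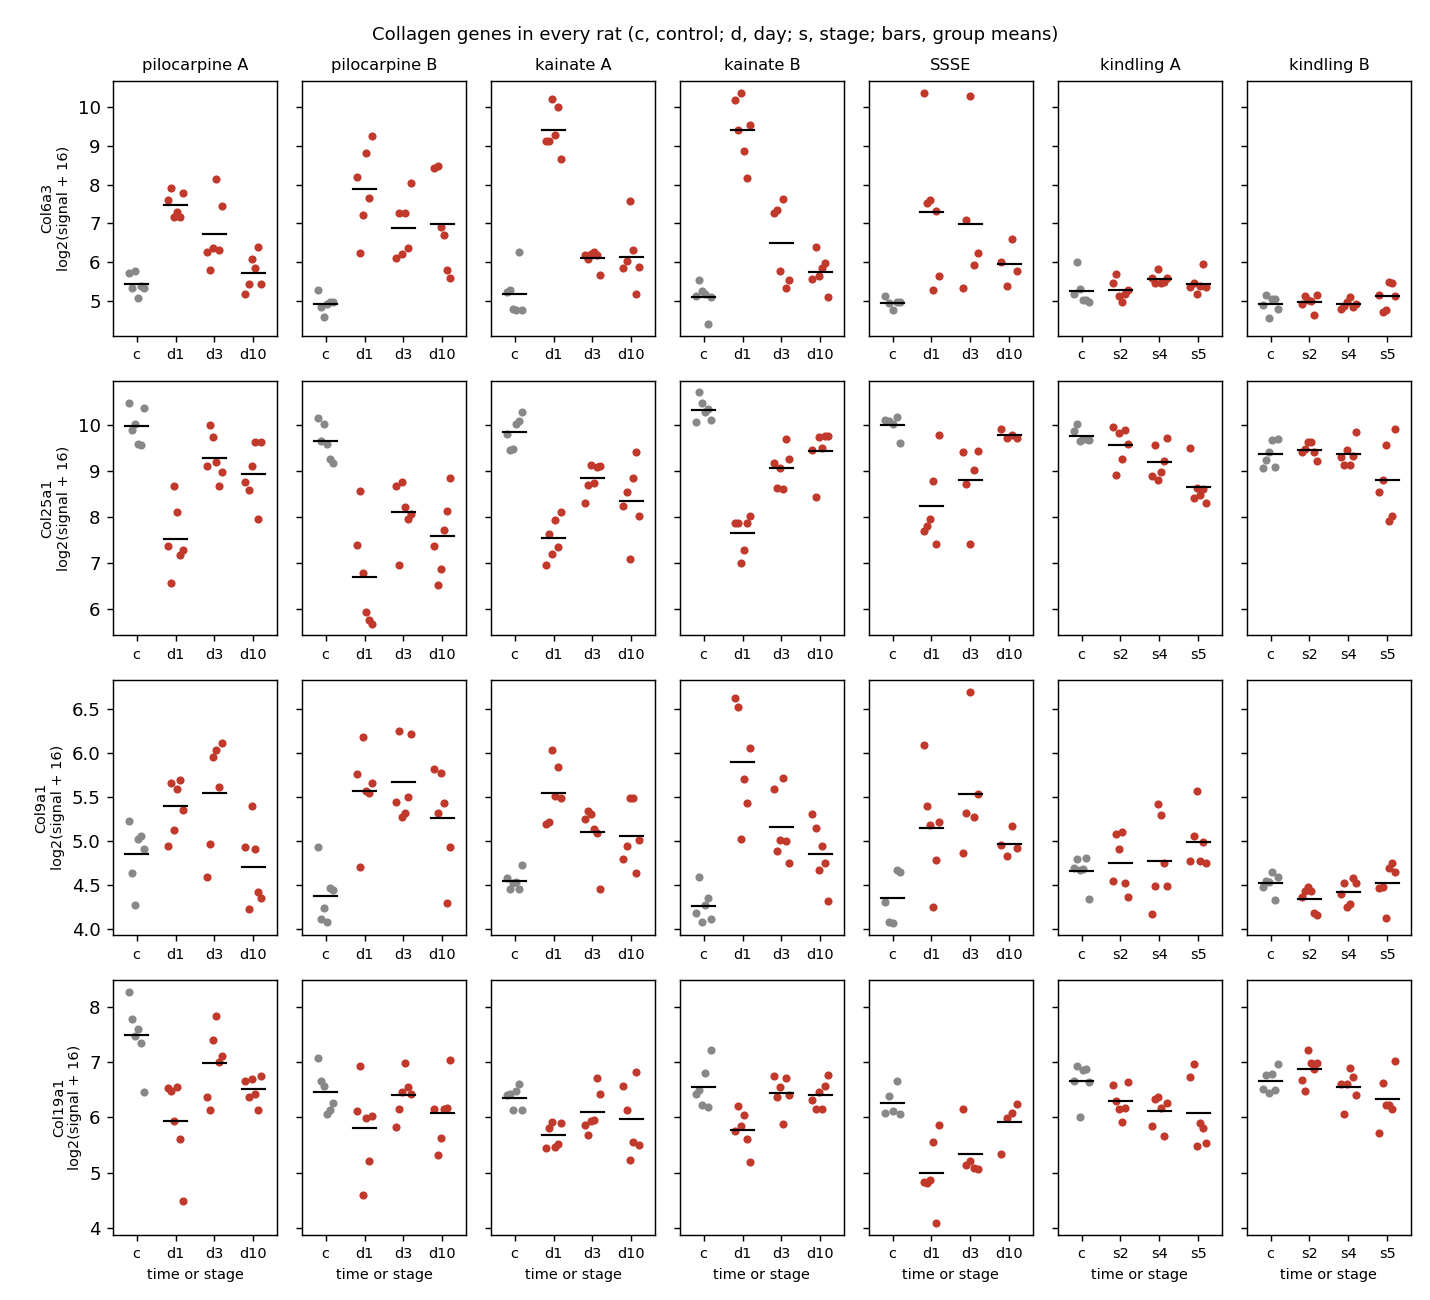
Level in log2(signal + 16) of Col6a3, Col25a1, Col9a1 and Col19a1 in every rat, by model, laboratory and time, with control rats in grey. The kainate rats at day 1 sit between 8.18 and 10.36 for Col6a3, above all their controls, and between 6.96 and 8.10 for Col25a1, below all their controls.

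Averaged over laboratories, chains of collagens IX and XI moved in opposite directions at day 1 after both drugs. Collagen IX, which sits on the surface of other fibrils, is built from the chains of Col9a1, Col9a2 and Col9a3. Col9a1 was higher in 6 comparisons, with the largest rise at day 1 after kainate. There it was 5.19, 5.50 and 6.03 in laboratory A, against 4.45, 4.53 and 4.72 in control rats, and 5.02, 5.88 and 6.63 in laboratory B, against 4.08, 4.23 and 4.59 in control rats. No kainate rat overlapped with its controls, and the rise was 1.32 ± 0.14 (adjusted p = 3.16e-10). Col9a2 fell in the same rats, by 0.65 on the log2 scale (SE 0.10; adjusted p = 1.86e-06). After pilocarpine the pair also parted at day 1, with 0.87 ± 0.18 for Col9a1 and -0.72 ± 0.15 for Col9a2. Col9a3 fell at day 1 in SSSE rats (-0.70 ± 0.22; adjusted p = 0.0453), where Col9a1 differed by 0.80 ± 0.29 (adjusted p = 0.0707). The fall of Col9a3 lost its call under 18 of 31 alternatives, with adjusted p up to 0.271. At day 3 in SSSE rats Col9a1 was 4.86, 5.31, 6.69, 5.27 and 5.53, against 4.31, 4.08, 4.06, 4.67 and 4.65 in control rats. All 5 rats were above the controls, and the rise was 1.18 ± 0.30 (adjusted p = 0.0355), or 0.89 and not called without the less correlated rats. Col9a1 was above the array median in 22 rats, so its brighter rats brought it into the test.

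Col19a1, a collagen found at basement membranes and made by some neurons, was lower at day 1 in the 3 models of status epilepticus. In SSSE rats at day 1 its level was 4.09 in the lowest rat, 4.85 at the median and 5.86 in the highest, against 6.06, 6.12 and 6.66 in control rats. These groups did not overlap, and the change was -1.26 ± 0.26 (adjusted p = 0.00565). The day 1 change was -1.10 ± 0.23 after pilocarpine (adjusted p = 0.000182) and -0.73 ± 0.15 after kainate (adjusted p = 5.98e-05). At kindling stage 5 it was -0.46 ± 0.14.

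Col11a1, a chain of the fibril-forming collagen XI, rose strongly after pilocarpine and differed between the kainate laboratories. Pilocarpine rats at day 1 had 6.74, 7.42 and 8.75 in laboratory A, against 5.47, 6.02 and 6.69 in control rats, and 7.17, 7.61 and 8.93 in laboratory B, against 5.84, 6.18 and 6.79 in control rats. All 12 rats were above their controls, with a rise of 1.56 ± 0.33 (adjusted p = 0.000242), and the rise at day 3 was 2.04 ± 0.33 (adjusted p = 1.55e-05). At day 10 the mean of 1.03 ± 0.33 was 0.36 in laboratory A and 1.71 in laboratory B, and without the less correlated rats it was 0.86 and not called. One day after kainate the level was 4.86, 5.55 and 6.59 in laboratory A, against 5.58, 5.74 and 6.59 in control rats, and 7.39, 8.12 and 8.82 in laboratory B, against 5.99, 6.31 and 6.73 in control rats. The groups overlapped in laboratory A and did not in laboratory B. In the F-test of whether the kainate laboratories differed at any of the 3 times, Col11a1 was the 1 gene of all 10745 that passed (adjusted p = 0.0229; 0.00931% of all genes). It was not called with 1 in place of 16 added to the signal, nor in 1 fit of all 28 groups. At day 1 the change in laboratory A minus that in laboratory B was -2.09 ± 0.34 (adjusted p = 0.00249). The laboratories differed in dose and in how status epilepticus ended, and these cannot be told apart from other differences between them. Col11a2, the alpha 2 chain of collagen XI, fell by 0.51 on the log2 scale at day 1 after kainate (SE 0.12; adjusted p = 0.00038) and by 0.46 at day 1 after pilocarpine (SE 0.14; adjusted p = 0.0112). The day 1 change after pilocarpine was -0.89 in laboratory A and -0.03 in laboratory B. Col11a2 was not called in the other comparisons in which Col11a1 was higher, with -0.19 ± 0.14 at day 3 and -0.25 ± 0.14 at day 10 after pilocarpine and -0.09 ± 0.12 at day 3 after kainate.

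Col4a1 and Col4a2, the main chains of collagen IV, are transcribed in opposite directions from start sites 77 bases apart. Col4a2 rose at day 1 (0.55 ± 0.15) and day 3 (0.47 ± 0.15) after pilocarpine and at day 3 in SSSE rats (0.49 ± 0.13; adjusted p = 0.0472), while Col4a1 rose at day 1 after kainate (0.47 ± 0.13). The SSSE value of Col4a2 kept its direction but not its call under 19 of 31 alternatives, with adjusted p up to 0.199. The 2 genes were never both called in 1 comparison, but a difference between them was not tested. Where Col4a2 was called, Col4a1 differed by 0.34 ± 0.16 and 0.07 ± 0.16 at days 1 and 3 after pilocarpine. It differed by 0.11 ± 0.13 at day 3 in SSSE rats. Where Col4a1 was called, at day 1 after kainate, Col4a2 differed by 0.26 ± 0.12. Col18a1, the source of endostatin, rose at day 3 (0.94 ± 0.17; adjusted p = 0.000143) and day 10 (0.60 ± 0.17) after pilocarpine. The day 10 value was 0.45 with the first array of each rat only and 0.33 with probe sets averaged, and was called in neither. Of the fibrillar collagen V chains, Col5a2 rose at day 3 after pilocarpine (0.77 ± 0.21) and Col5a3 at day 1 after kainate (1.11 ± 0.19) and pilocarpine (0.47 ± 0.16). Col5a3 was above the array median in 7 rats, so its brighter rats brought it into the test. Smaller changes at day 1 after kainate were higher Col24a1 (0.43) and Col16a1 (0.34) and lower Col23a1 (-0.29). Col23a1 was also lower at day 1 in SSSE rats (-0.43 ± 0.11).

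Among the laminins, an alpha and a beta chain moved apart at day 1 after both drugs. Lama2, the alpha 2 chain of muscle, nerve and brain basement membranes, was lower at day 1 in all 3 models of status epilepticus. At day 1 after pilocarpine it was 4.25, 5.17 and 7.24 in laboratory A, against 6.24, 6.40 and 6.68 in control rats, and 4.35, 4.84 and 5.93 in laboratory B, against 6.13, 6.37 and 6.64 in control rats. Of the 12 treated rats 11 were below all controls of their laboratory, and the change was -1.28 ± 0.23 (adjusted p = 2.53e-05). Kainate rats of laboratory A at day 1 had 4.90, 5.04 and 7.98, against 5.91, 6.20 and 7.49 in control rats, so that 1 kainate rat was above every control, and the change over both laboratories was -0.88 ± 0.24 (adjusted p = 0.00247). In SSSE rats it was -0.84 ± 0.18 (adjusted p = 0.00727).

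Lamb2, the beta 2 chain, which can pair with the alpha 2 chain, rose at day 1 after both drugs, where Lama2 fell. Its day 1 level after kainate was 7.73, 8.03 and 8.85 in laboratory A, against 6.41, 6.66 and 7.91 in control rats, and 7.02, 7.60 and 7.90 in laboratory B, against 6.02, 6.39 and 7.02 in control rats. The rise was 1.23 ± 0.16 (adjusted p = 1.17e-08), with 11 of 12 rats above their controls. After pilocarpine it was 0.99 ± 0.22 at day 1 and 1.24 ± 0.22 at day 3, where 12 of 12 rats were above their controls. Lamb2 was not called at day 1 in SSSE rats (0.27 ± 0.34) or at day 10 after pilocarpine (0.55 ± 0.22), although Lama2 was called lower there too, at day 10 only with the less correlated rats included (-0.58 and not called without them). Lamc1, the gamma 1 chain shared by most laminins, rose by 0.46 ± 0.16 at day 1 after pilocarpine, which was 0.87 in laboratory A and 0.05 in laboratory B. Lama3, a chain of epithelial laminins, rose by 0.69 ± 0.13 at day 3 in SSSE rats. These had 5.57, 5.38, 5.63, 5.35 and 5.40, against 4.93, 4.50, 4.89, 4.69 and 4.90 in control rats, with no overlap. Lama3 was above the array median in 6 rats, the fewest that allow a test. It was tested only because of its brightest rats, so the missing overlap is not separate support. Lama3 also rose at kindling stage 5 (0.33 ± 0.10).

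**Figure D4:**
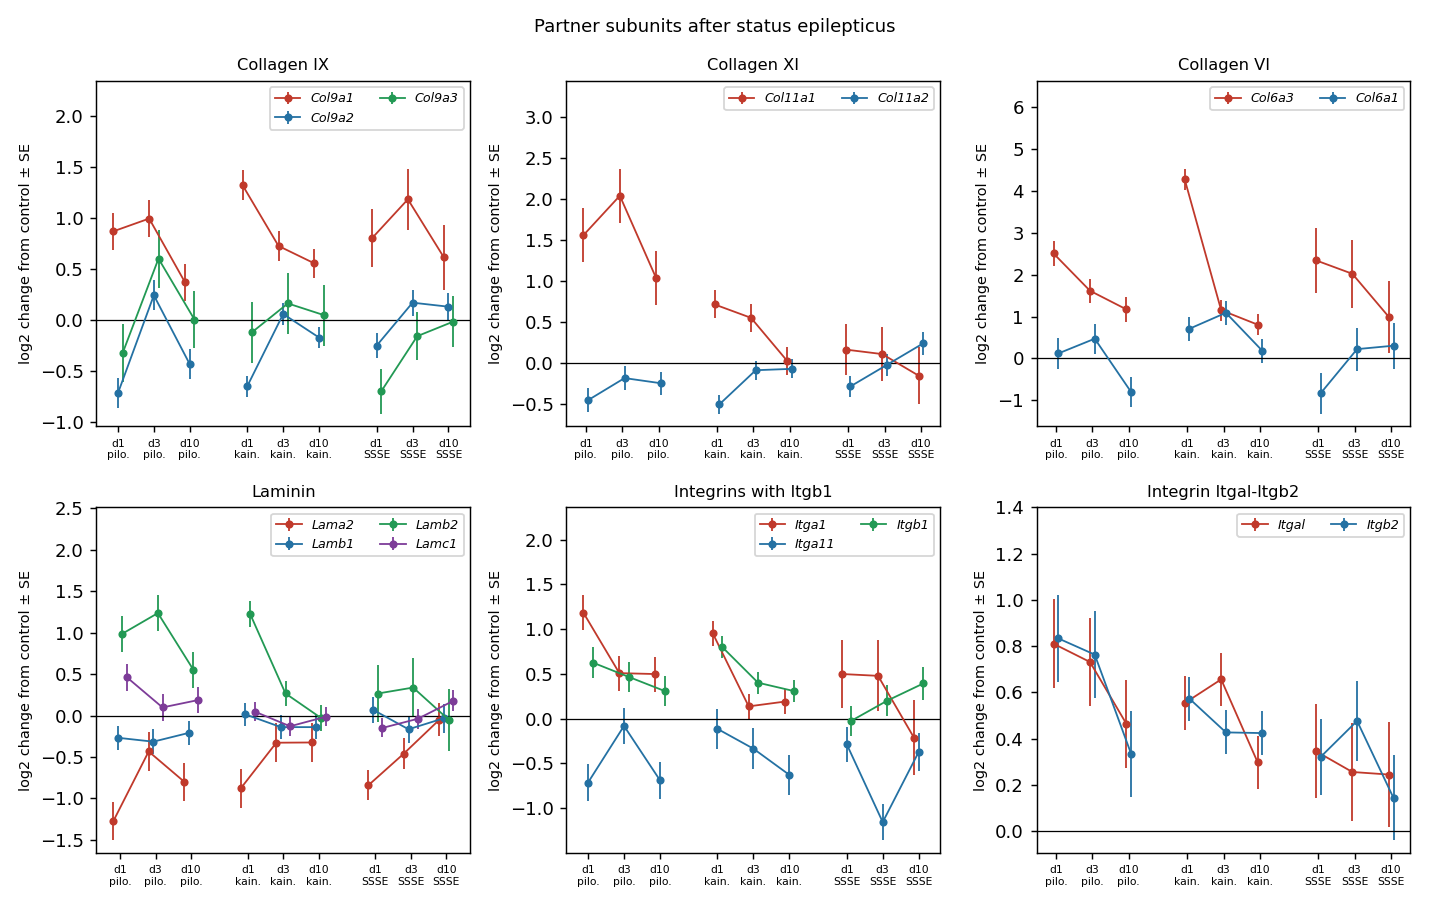
Change from control in log2(signal + 16), with its SE, of chains that belong to the same collagen, laminin or integrin, in the 3 models of status epilepticus by day. Col9a1 and Col9a2, Col11a1 and Col11a2, and Lamb2 and Lama2 lie on opposite sides of 0 at day 1 after pilocarpine and kainate, while Itgal and Itgb2 lie on the same side. Values are means over laboratories. For collagen XI, Col11a1 rose in laboratory B and not in A after kainate, and Col11a2 fell mainly in laboratory A after pilocarpine.

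Of the integrins, Itga2b, the alpha IIb subunit best known from platelets, rose at day 1 in the 3 models of status epilepticus. After pilocarpine it was 6.50, 6.73 and 7.28 in laboratory A, against 4.96, 5.69 and 5.97 in control rats, and 5.87, 6.71 and 7.43 in laboratory B, against 4.33, 5.21 and 5.93 in control rats. The rise was 1.37 ± 0.18 (adjusted p = 7.38e-08), with 11 of 12 rats above their controls. After kainate it was 1.39 ± 0.14 (adjusted p = 8.37e-11), with 12 of 12, and in SSSE rats 1.01 ± 0.28 (adjusted p = 0.0246), with 5 of 6. Itga2b was the 1 member called higher at day 1 in all 3 models. Its partner in platelets, Itgb3, was above the array median in 0 rats and was not tested.

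Itgb1, the beta 1 subunit shared by collagen and laminin receptors, rose at day 1 after kainate (0.80 ± 0.12) and pilocarpine (0.63 ± 0.17). Of its collagen-binding partners, Itga1 rose at day 1 after pilocarpine (1.18 ± 0.20; 9 of 12 rats above their controls) and kainate (0.95 ± 0.14; 11 of 12). Itga1 was above the array median in 13 rats. Its brighter rats brought it into the test, so these counts of rats are not separate support. Itga11 was lower at day 1 after pilocarpine, where it was 4.96, 5.37 and 5.83 in laboratory A, against 5.98, 6.17 and 6.78 in control rats, and 4.77, 5.50 and 6.43 in laboratory B, against 5.42, 6.22 and 6.85 in control rats. The groups overlapped in laboratory B only, and the change was -0.71 ± 0.21. At day 1 after kainate Itga11 differed by -0.11 ± 0.23 and was not called. In SSSE rats at day 3 Itga11 was 6.07, 5.83, 4.71, 5.77 and 5.33, against 6.53, 6.74, 6.67, 6.74 and 6.81 in control rats, with no overlap and a change of -1.16 ± 0.20 (adjusted p = 0.00372).

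Of the laminin receptors, Itgb4, the beta 4 subunit, was lower at day 1 after pilocarpine (-0.75 ± 0.15) and kainate (-0.65 ± 0.10), and again at day 10 after pilocarpine (-0.61 ± 0.15) and kainate (-0.46 ± 0.10). Itga7 was lower at day 1 after kainate (-0.62 ± 0.20). Itga6, which pairs with Itgb1 or Itgb4, was lower at day 1 in SSSE rats (-0.66 ± 0.20; adjusted p = 0.0334), where it was 5.97, 6.27 and 6.70 (lowest, median and highest rat), against 6.80, 6.87 and 7.15 in control rats, and the groups did not overlap. Averaged over all its probe sets, however, Itga6 differed by -0.10 and was not called. Itgav, a subunit of vitronectin and fibronectin receptors, rose at day 10 after pilocarpine (0.74 ± 0.22; 0.38 and not called without the 5 rats that correlated least with their groups). Itgb5, one of its partners, rose at day 3 after pilocarpine (0.66 ± 0.22), and Itga3, another laminin receptor subunit, by 0.30 at day 1 after kainate.

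Itgal and Itgb2, the subunits of the leukocyte integrin LFA-1, were called higher together in 4 comparisons. At day 1 after pilocarpine Itgb2 was 5.93, 6.27 and 6.73 in laboratory A, against 4.68, 5.20 and 6.26 in control rats, and 4.90, 6.13 and 6.45 in laboratory B, against 4.57, 5.20 and 5.78 in control rats. The groups overlapped in both laboratories, and the rise was 0.83 ± 0.19. Itgal at day 1 after pilocarpine was 5.39, 6.06 and 6.63 in laboratory A, against 5.00, 5.61 and 6.01 in control rats, and 5.54, 6.48 and 7.08 in laboratory B, against 5.18, 5.24 and 5.44 in control rats. There the groups overlapped in laboratory A, and the rise was 0.81 ± 0.19. Most of the laboratory A controls are means of 2 arrays, and the treated rats had 1 array each. In the repeated controls Itgal was 5.47 to 6.30 on the first arrays and 4.72 to 5.85 on the second. After kainate Itgb2 rose by 0.57 ± 0.10 and Itgal by 0.55 ± 0.11 at day 1, and at day 3 by 0.43 ± 0.10 and 0.66 ± 0.11. Itgb2 was still higher at day 10 after kainate (0.42 ± 0.10). Itgam and Itgax, other partners of Itgb2 on myeloid cells, were above the array median in 0 and 1 rats and were not tested. Itgae, a subunit of lymphocytes in epithelia, was lower at day 1 after kainate (-0.38).

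**Figure D5:**
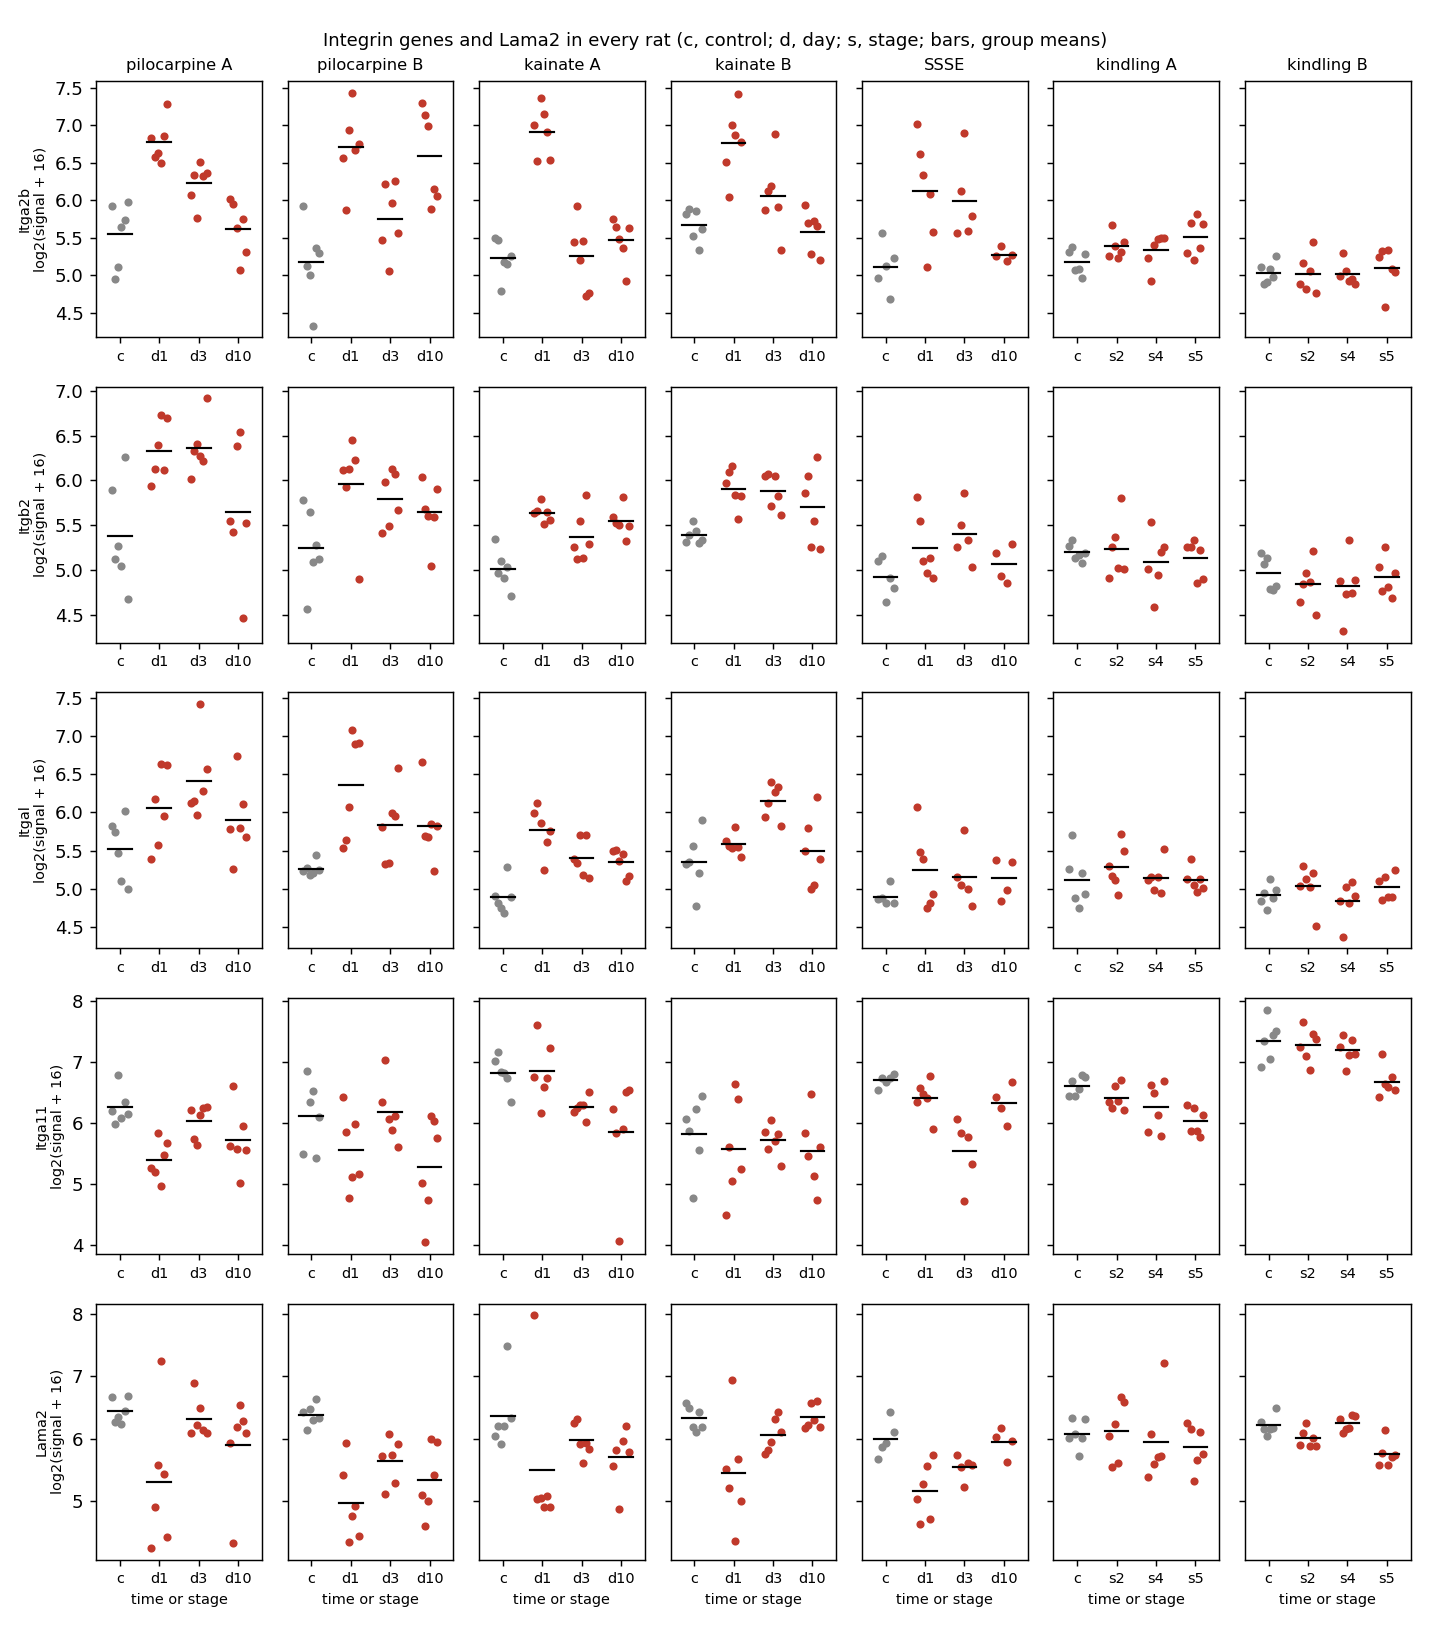
Level in log2(signal + 16) of Itga2b, Itgb2, Itgal, Itga11 and Lama2 in every rat, by model, laboratory and time, with control rats in grey. Itga2b lies above every control of its laboratory in 12 of 12 kainate rats at day 1, and Itga11 lies below every control in 5 of 5 SSSE rats at day 3.

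Microglial markers were read beside these leukocyte integrins. Of 17 tested genes of a microglia and macrophage list that holds no member, 10 rose and 1 fell at day 1 after pilocarpine, and 9 rose and 1 fell after kainate, against 15.8% and 22.3% of all genes higher. At day 3, 12 rose after pilocarpine and 13 after kainate, against 7.74% and 4.67%. At day 10 after kainate 9 rose, against 2.58% of all genes, and there Itgb2 was called higher and Itgal was not. At day 10 after pilocarpine 6 rose, against 3.83% of all genes, and at day 3 in SSSE rats 2 rose, against 1.67%. Neither Itgal nor Itgb2 was called in these last 2 comparisons. In SSSE rats 0 rose and 2 fell at day 1, where neither integrin was called. The summed signal of the 19 listed genes on the array at day 1 after pilocarpine was 1349 to 3152 in laboratory A, against 586 to 1894 in control rats, and 1211 to 3971 in laboratory B, against 572 to 985 in control rats. For kainate at day 1 the sum was 929 to 2000 in laboratory A, against 528 to 1695 in control rats, and 717 to 1433 in laboratory B, against 652 to 1017 in control rats. The ranges overlapped in 3 of these 4 comparisons, and their part in the changes of Itgal and Itgb2 was not tested.

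Markers of other cells gave a mixed picture. In most of the 41 control rats, 7 of 8 granule neuron markers were above the array median, as were 10 of 12 astrocyte, 8 of 14 endothelial, 8 of 13 oligodendrocyte, 6 of 19 microglial and 5 of 10 fibroblast and meningeal markers. Of 6 interneuron markers, 4 were above it as well. None of 10 mural (pericyte and smooth muscle) and none of 11 blood leukocyte markers were. The leukocyte list had 0 genes bright enough to test. All genes stood at 15.8% higher and 16.3% lower at day 1 after pilocarpine, 22.3% and 19.4% after kainate, and 5.52% and 7.03% in SSSE rats, and the counts that follow are to be set against these shares. Granule neuron markers fell at day 1 in 7 of 7 tested genes after pilocarpine, in 7 of 7 after kainate and in 4 of 7 in SSSE rats. Of 11 tested astrocyte markers 1 rose and 8 fell at day 1 after each drug. Oligodendrocyte markers (11 tested) fell in 2 genes at day 1 after pilocarpine, in 1 after kainate and in 0 in SSSE rats, and 0 rose. Interneuron markers (5 tested) rose in 0 genes and fell in 1 at day 1 in each of the 3 models. Of 11 endothelial markers 3 rose and 0 fell after pilocarpine, and 2 rose and 1 fell after kainate. Of 6 mural markers 1 rose after pilocarpine and 0 after kainate, and of 9 fibroblast and meningeal markers 1 rose after each drug at day 1 and 4 at day 3 after pilocarpine (7.74% of all genes higher). The part of these lists in the changes of the collagens and laminins was not tested. Each array holds the RNA of a pool of captured cells, so fewer cells of a type and less RNA per cell cannot be told apart.

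The timing of the changes was tested within each model. Among the 3 times after kainate, 19 of 47 members differed in the F-test (40.4%), against 35.3% of all genes. They were led by Col6a3 (adjusted p = 2.84e-15), Itga2b, Col25a1, Lamb2 and Col9a2. From day 1 to day 10 after kainate, the difference from control moved by -3.47 ± 0.25 for Col6a3, -1.32 ± 0.14 for Itga2b and -1.26 ± 0.16 for Lamb2, all toward control, and by 1.31 ± 0.18 for Col25a1, also toward control. After pilocarpine 19 of 47 members differed between times in the F-test (40.4%), against 24.6% of all genes. They were led by Col9a2 (adjusted p = 1.91e-05), Col25a1, Col6a3, Itga2b and Col4a5. In SSSE rats Itga11 was the 1 member of 47 that passed the F-test (adjusted p = 0.0366; 3.19% of all genes), with 0 to 8 members passing when 1 rat was left out at a time. It was 6.34, 6.57, 6.47, 6.41, 6.78 and 5.90 at day 1, 6.07, 5.83, 4.71, 5.77 and 5.33 at day 3 and 6.43, 6.24, 5.95 and 6.68 at day 10.

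The 3 models of status epilepticus were compared at each day in 1 fit of all 28 groups. At day 1, 3 of 47 members differed between models in the F-test (5.74% of all genes): Col6a3 (adjusted p = 0.00507), Itga6 (adjusted p = 0.0412) and Col11a1 (adjusted p = 0.0416). With no filter on low values, with probe sets averaged, or without the 2 rats whose labels contradict each other, 1 member differed. The rise of Col6a3 after pilocarpine was smaller than that after kainate, with a difference of -1.77 ± 0.42 (adjusted p = 0.0082). At day 3 Col11a1 alone differed (adjusted p = 0.0038; 0.447% of all genes), its rise after pilocarpine being larger than that after kainate by 1.49 ± 0.33 (adjusted p = 0.0185). At day 10, 0 members passed in limma, with 5 at an unadjusted p under 0.05 and 0.0651% of all genes called. The models differed in laboratory as well as in how seizures were evoked, and these cannot be told apart.

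In kindled rats members were called at stage 5 and at neither earlier stage. Beside Col25a1, Col19a1 and Lama3, the members changed at stage 5 were the integrins Itga11 (-0.63 ± 0.11; adjusted p = 0.000406), Itga6 (-0.42 ± 0.11) and Itgae (-0.24 ± 0.07). Itga6, read from 1 of its 4 probe sets, lost its call under 2 of 11 alternatives. Its change there ran from -0.47 to -0.10, with adjusted p up to 0.477 in limma. Calls were also lost for Col19a1 (2 of 11), Lama3 (2 of 10), Itga11 (1 of 11) and Itgae (1 of 10). Itga11 at stage 5 was 5.77, 6.00 and 6.29 in laboratory A, against 6.44, 6.62 and 6.78 in control rats, and 6.42, 6.61 and 7.13 in laboratory B, against 6.91, 7.39 and 7.86 in control rats. Of the 12 rats 11 lay below all controls of their laboratory. Between the 3 stages 3 of 47 members differed in the F-test (0.996% of all genes): Col25a1 (adjusted p = 0.0143), Itga11 (adjusted p = 0.0186) and Itga6 (adjusted p = 0.0382). When the kindled rats were fitted together with all 28 groups, which gives each gene 1 spread over all models, 1 of the 6 changes at stage 5 was called. Col6a3, the member with the largest rises after status epilepticus, was not called at any stage.

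Genes that make, cut or bind the matrix were taken from lists outside the 73. The shares of all genes at day 1 were 15.8% higher and 16.3% lower after pilocarpine, 22.3% and 19.4% after kainate, and 5.52% and 7.03% in SSSE rats. Of 15 tested genes of collagen making and cross-linking, 8 rose and 1 fell at day 1 after pilocarpine, 7 rose and 1 fell after kainate, and 1 rose and 1 fell in SSSE rats. Lox, the lysyl oxidase that cross-links collagen, had the largest changes, at 4.81 ± 0.45, 4.93 ± 0.27 and 2.83 ± 0.58 in the same order. Of 24 tested proteases and inhibitors, 12 rose and 5 fell after pilocarpine, 10 rose and 6 fell after kainate, and 2 rose and 1 fell in SSSE rats. Among these the protease inhibitor Timp1 rose by 3.10 ± 0.45 after pilocarpine and 3.49 ± 0.25 after kainate, and the gelatinase Mmp9 by 1.70, 1.84 and 1.67 in the 3 models.

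Receptors and adaptors outside the integrin family were called in both directions, and their day 1 counts are to be set against the day 1 shares of all genes given above. The same holds for the other lists that follow. Of 39 tested integrin adaptors and signalling genes, 17 rose and 1 fell at day 1 after pilocarpine, 18 rose and 3 fell after kainate, and 2 rose and 3 fell in SSSE rats. The actin regulator Vasp rose by 0.98 after pilocarpine and 1.15 after kainate. Of 15 other matrix receptors, 5 rose and 3 fell after pilocarpine, 6 rose and 3 fell after kainate, and 2 rose and 1 fell in SSSE rats. The galactose-binding lectin Lgals3 rose by 3.42, 3.15 and 1.92 in the 3 models and the syndecan Sdc1 by 2.77 after pilocarpine and 3.36 after kainate. Of 31 other matrix proteins, 6 rose and 4 fell at day 1 after pilocarpine and 11 rose and 0 fell at day 3 (7.74% and 3.93% of all genes), 8 rose and 6 fell at day 1 after kainate, and 2 rose and 0 fell in SSSE rats, where osteopontin (Spp1) rose by 1.24. Of 11 tested genes of the TGF-beta pathway, which drives collagen expression in many tissues, 1 rose and 2 fell after pilocarpine, 4 rose and 2 fell after kainate, and 0 rose and 2 fell in SSSE rats.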

How the data were processed

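RNA of laser-captured granule cells from 164 rats was hybridised to 172 arrays of 1 colour. The signal of each probe set was computed by the authors with MAS5, per the submitters' processing notes, which give no version, and was deposited as a linear intensity. The deposited signals share a trimmed mean of about 150 on every array, so a shift of total RNA between rats cannot be seen. Array medians were 28.0 to 54.2. This is the level used to filter genes and not a limit of detection, and several members were read below it. The number of rats limits precision.

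Repeated arrays of 8 rats were averaged on the log2(signal + 16) scale of these deposited signals. Most of these rats were pilocarpine controls of laboratory A, and no treated pilocarpine rat was repeated. In that model the averaging therefore moved the laboratory A controls alone. With the first array of each rat only, 69 of 70 values of named members kept their call. Genes above the array median in at least 6 rats (10745 of 14217) were fitted with limma 3.58.1 in R 4.3.3, with 1 mean per group within each model. Changes from same-laboratory controls were averaged over laboratories with equal weight, and laboratories, times and models were compared by moderated F-tests. P-values were adjusted by Benjamini-Hochberg over all genes, and a call means an adjusted p under 0.05. The fit was run on data simulated with independent normal noise and 1 spread per gene. A log2 change of 0.5 was recovered in 75% of changed genes at day 1 after pilocarpine and in 18% at day 10 in SSSE rats. For a change of 1 these were 97% and 81%.

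Rat numbers are shared between groups. Same-numbered rats had deviations correlating above 0.1 in 89 of 240 pairs. However, 50 of 164 rats correlated best with their own number, against 27.2 expected by chance. The main fit did not treat them as paired, and the closing section gives a fit with rat number as a block. Named members are, in each comparison, up to 6 rises and 6 falls of the same sign in both laboratories, members changed in at least 6 of the 9 comparisons after status epilepticus or at any kindling stage, and the 5 smallest p of each F-test. Per-rat ranges were fixed for the 10 members changed most often. Other members and chains were named for their place in a protein, with their values seen. The members and all lists were chosen with earlier results of these data known. Alternatives changed the value added, the filter, the scaling, the rats or the fit. The labels of 2 rats, number 4 at stage 2 of kindling in laboratory A and number 3 at day 1 of SSSE, contradicted each other, and the closing section gives the results without them.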

Additional observations from a re-analysis of the deposited data

Results flagged for a closer look

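In the 10 members changed most often, 280 sets of rats (10 genes in 28 groups) were searched for a rat far from the rest of its group, and 24 were found; chance gives about 1 in 20. Values are log2(signal + 16), followed by the range of the other rats. One rat stood apart in 3 genes: rat 5 of the kainate laboratory A controls was high in Col6a3 (6.26, others 4.76 to 5.28), Lama2 (7.49, others 5.91 to 6.33) and Itgal (5.28, others 4.69 to 4.91). Rat 6 at day 3 after kainate in laboratory A was low in Col6a3 (5.67, others 6.08 to 6.27) and Col9a1 (4.46, others 5.09 to 5.34), and rat 6 at stage 4 of kindling in laboratory A was high in Lama2 (7.21, others 5.39 to 6.07) and Itgal (5.52, others 4.95 to 5.16).

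Lama2 stood out in 3 further rats. It was 7.98 in rat 1 at day 1 after kainate in laboratory A (others 4.90 to 5.08), 4.33 in rat 2 at day 10 after pilocarpine in laboratory A (others 5.93 to 6.53) and 6.13 in rat 3 at kindling stage 5 in laboratory B (others 5.57 to 5.78). Col25a1 was 8.43 in rat 2 at day 10 after kainate in laboratory B (others 9.47 to 9.77), 9.51 in rat 1 at kindling stage 5 in laboratory A (others 8.31 to 8.63) and 9.62 in SSSE control rat 5 (others 10.02 to 10.18). Col6a3 was 5.96 in rat 5 at kindling stage 5 (others 5.19 to 5.46) and 5.99 in control rat 2 (others 4.98 to 5.30), both of laboratory A.

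The other outlying rats were spread over several groups. Col11a1 was 10.3 in rat 4 at day 3 after pilocarpine in laboratory A (others 7.47 to 8.48), and Col19a1 was 6.14 in SSSE rat 2 at day 3 (others 5.08 to 5.22). Itgb2 was 4.9 in rat 6 at day 1 after pilocarpine in laboratory B (others 5.93 to 6.45), and Itga11 was 4.05 in rat 3 at day 10 after kainate in laboratory A (others 5.83 to 6.54). Itgal was 4.51 in rat 6 at kindling stage 2 in laboratory B (others 5.03 to 5.29), 5.44 in control rat 5 of pilocarpine laboratory B (others 5.18 to 5.27) and 5.09 in SSSE control rat 4 (others 4.81 to 4.88). In kindling laboratory A, Col9a1 was 4.34 in control rat 6 (others 4.67 to 4.80) and Col19a1 was 6.02 in control rat 3 (others 6.64 to 6.92).

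Differences between groups that passed an F-test were those of Col11a1 between the kainate laboratories (adjusted p = 0.0229) and, between the models of status epilepticus, of Col6a3 (0.00507), Itga6 (0.0412) and Col11a1 (0.0416) at day 1 and of Col11a1 at day 3 (0.0038), all adjusted p in limma.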

How the results depend on the processing

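Of 964 values of named genes under the alternatives, 869 kept their direction and their call, 95 kept their direction without the call and 0 reversed. Of 319 counts of members, 269 stayed within 1.5 times and 50 did not. The share of all genes called under each alternative is not given here, so these counts cannot be read as particular to the members. With 1 in place of 16 added to the signal, 0 members differed between kainate laboratories and 0 between times in SSSE rats; with 64 added, 3 had changed at day 10 after kainate. With no filter, 1 member differed between models at day 1. A filter on the mean over all rats, which leaves 22 members, gave 11 and 6 changed members at days 1 and 3 after pilocarpine, 13, 5 and 3 at days 1, 3 and 10 after kainate, and 4 and 2 at days 1 and 3 in SSSE rats. These are counts out of 22 and cannot be set against counts out of 47. Quantile normalisation left 2 members differing between models at day 3. One fit of all 28 groups gave 1 changed member at kindling stage 5, 10 differing between pilocarpine laboratories, 0 between kainate laboratories, 2 between times in SSSE rats and 0 between kindling stages, and took the call from 13 of 70 gene values.

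With rat number as a block, 0 members differed between times in SSSE rats and 3 of 70 gene values lost their call. Same-numbered rats are not known to be paired. The median correlation of their deviations was 0.0672, but 50 of 164 rats correlated best with their own number, against 27.2 expected by chance. Whether rat number marks something shared was not tested. With the first array of each rat only, 2 members differed between pilocarpine laboratories, 2 between times in SSSE rats and 3 between models at day 3. Without the 2 rats with contradicting labels, 0 differed between times in SSSE rats and 1 between models at day 1. Without the 5 rats least correlated with their groups (SSSE day 3 rat 4, kainate laboratory B day 10 rat 5, pilocarpine day 10 rats 2 and 5 of laboratory A and 2 of laboratory B), 6 members had changed at day 10 after pilocarpine, 11 at day 1 in SSSE rats, 4 differed between times in SSSE rats and 2 between models at day 3. With probe sets averaged, 1 differed between models at day 1.

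Leaving out 1 SSSE or control rat gave 4 to 11 changed members at day 1 in SSSE rats, 2 to 6 at day 3, 0 to 0 at day 10, and 0 to 8 differing between times. Day 1 gave 4 without control 1, control 4 or day 1 rat 2, and 11 without day 3 rat 4; day 3 gave 2 without control 1, 2 or 3 or day 3 rat 3, 5 or 6, and 6 without day 1 rat 6, which also gave the 8. The causes were not tested. Dim signals limit these genes: the median of the members' mean levels was 5.11, against 7.51 over all tested genes.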

Other observations

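Some genes that act on the matrix differed from control at later times as well, but most genes of their lists were not called. Of 15 tested genes of collagen making and cross-linking, 1 rose and 0 fell at day 10 after each drug and at kindling stage 5. At stage 5, 2 of 24 proteases and inhibitors rose and 1 fell, and 1 of 15 other matrix receptors rose and 2 fell. All genes at stage 5 stood at 3.23% higher and 3.87% lower. Lox, the collagen cross-linking enzyme, was still higher than control 10 days after pilocarpine (3.02 ± 0.45; adjusted p = 1.7e-05) and kainate (1.95 ± 0.27; adjusted p = 4.34e-06), and it was higher at kindling stage 5 (1.45 ± 0.25; adjusted p = 0.00044 in limma). Day 3 in SSSE rats gave 3.04 ± 0.61, and day 10, at 2.22 ± 0.64, did not pass (adjusted p = 0.217). The gelatinase Mmp9 was higher at day 3 after pilocarpine (1.13) and kainate (2.02) and at kindling stage 5 (0.80). Ddr2, a collagen-binding receptor kinase, was lower at kindling stage 5 (-0.78).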
